A study of Mus musculus with 563 samples.

Results

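The genes described here are Myc, its paralog Mycn and 32 genes whose products build ribosomes in the nucleolus. The 34 genes were listed by name with earlier results of these data known, and no level or difference enters the rule. Their Ensembl identifiers were found once each in both count tables, among 46041 nuclear gene entries. All 34 passed the level filter, with a mean of at least 10 reads per 1000000 (CPM) and detection in at least 10% of kept cells, as did 10723 genes in all.

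The cells are single hematopoietic stem cells (HSCs) sorted from mouse bone marrow at steady state, and every group carries the Gfp-Lc3 genotype, in which green fluorescent protein is fused to the autophagosome protein LC3. The groups are yHSC from young mice, and oHSC_LO, oHSC_MID and oHSC_HI from old mice, called young, LO, MID and HI below. The labels give no ages in months, do not say what LO, MID and HI rank, and name no animal, which makes a group 1 sample and leaves no test between groups. Of 563 cells, 533 were kept. The first count table holds 63 young cells, 65 of LO, 68 of MID and 68 of HI, and the second holds 71 young cells, 71 of LO, 66 of MID and 61 of HI. Below, bracketed pairs list the value of the first table before that of the second, and a sign shared by both tables is the only check of a difference. What separates the tables is not stated.

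MYC and MYCN are transcription factors that pair with MAX and bind DNA at E-boxes, with CACGTG as the canonical site. They are known for raising the genes of ribosome production, in which RNA polymerase I copies ribosomal DNA, small nucleolar ribonucleoproteins (snoRNPs) modify the transcript, and assembly factors process it into the small and large subunits. In HSCs, MYC is known for its part in the balance of self-renewal and differentiation, and quiescent HSCs are known for low protein synthesis.

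E-boxes near the start sites show where such a factor could bind, so the members that carry one are printed with it. RefSeq promoter windows (GRCm38.p6, 250 bases before to 50 bases after a start, 300 bases in all) were matched by symbol for 28 of 34 members, and not for Myc, Npm1, Fbl, Rrp12, Bop1 and Rrs1. The palindrome CACGTG was in the window of 5 of the 28 (17.9%), and in 8.09% of 27025 genes. Each site is shown 5′ to 3′ on the gene's strand in 30 bases, with the E-box in capitals.
Utp4: tgcgcaagcgcgCACGTGgggccggggcgg
Pes1: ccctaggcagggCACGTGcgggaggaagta
Tsr1: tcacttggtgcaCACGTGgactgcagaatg
Utp18: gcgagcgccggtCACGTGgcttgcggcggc
Wdr43: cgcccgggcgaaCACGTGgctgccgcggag
The stretches lie at chr8:106893643-106893672 on the plus strand (Utp4), chr11:3963965-3963994 plus (Pes1), chr11:74898092-74898121 plus (Tsr1), chr11:93885769-93885798 minus (Utp18) and chr17:71616220-71616249 plus (Wdr43). With the start site as base 1, the E-boxes begin at base 16 in Utp4, 3 in Pes1, 25 in Tsr1 and 18 in Wdr43, all within the annotated gene, and 20 bases before the start in Utp18. The variant site CACGCG, read on either strand, was in 9 of the 28 windows (32.1%: Ddx21, Nolc1, Nhp2, Nop10, Utp15, Pes1, Ppan, Nop16 and Rrp1) and in 10.5% of genes. These matches are letters in a window, not binding sites.

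The kept cells held 38972543 to 49994422 nuclear gene reads per group, and the median HI cell had 340529 reads, above 271443 in the young group, 257238 for LO and 254723 for MID. HI cells had 70.3 nuclear gene reads for each spike-in read, against 46.9 in young, 49.05 in LO and 50.02 in MID. After each cell was thinned to 100000 reads, the median number of genes read was 7184 in the HI group, beside 6336.5 in young cells, 6637 in LO and 6548 in MID. Reads of Mki67 or Top2a, genes of dividing cells, were absent from 40 young cells (29.9%), 68 LO (50%), 66 MID (49.3%) and 29 HI cells (22.5%). After thinning, the shares without such reads were 47.7%, 65.04%, 65.4% and 34.96%. All 12 HSC markers passed the level filter, with summed levels of 4125 to 5398 CPM over the 8 sums of group and table. In the second table all 71 young cells had at least 20 Xist reads and none had 20 reads of Y-linked genes. Such Y-linked reads were found in 57 of the 63 young cells of the first table, and in 57 to 62 cells of each old group in each table. Sex and age therefore cannot be told apart in the second table.

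Myc (ENSMUSG00000022346; GRCm38 chromosome 15, 61985391 to 61990374) was highest in MID cells on average, at 537 CPM against 378 in HI, 392 in young and 281 in LO. By table, its summed level was 304 and 479 CPM in young, 224 and 338 in LO, 427 and 648 in MID, and 427 and 328 in HI (first and second table). LO was the lowest group in the first table, where MID and HI were alike, and MID stood alone at the top in the second. Single cells overlapped across all groups, from 0 to 2962 CPM with a median of 166 in young, 0 to 2370 with 142.04 in LO, 0 to 2807 with 306 in MID, and 0 to 2147 with 219 in HI. Myc was the 1 member that was at least 1.5-fold higher in MID than in LO in each table, the size used here for a call, with a log2 difference of 0.93 (0.93 and 0.93). The same call was met by 1.55% of all genes, and it held in all 9 alternatives run for it, at 0.65 to 0.93. HI and LO differed in Myc by 0.44 (0.93 and -0.05), so the tables did not share a direction.

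The share of thinned cells with a Myc read was 72.7% in young (exact 95% interval 64.1% to 80.2%), 76.4% in LO (67.9% to 83.6%), 74.8% in MID (66.3% to 82.1%) and 89.4% in HI (82.6% to 94.3%). Without thinning the shares were 85.1%, 78.7%, 82.8% and 89.9%. HI thus had the largest share of cells with a Myc read, while its mean level was below that of MID. By table, the thinned shares were 72.9% and 72.5% in young and 66.7% and 84.8% in LO. They were 73.8% and 75.8% in MID and 92.3% and 86.2% in HI, so the gap of HI to LO was mainly in the first table. In cells without Mki67 and Top2a reads, Myc stood at 200.5 and 377 CPM in young, 277 and 305 in LO, 378 and 660 in MID, and 507 and 325 in HI. There MID was above young by 0.86 (0.91 and 0.81), a call that 7.12% of genes met. It held in 9 of 11 alternatives and was lost under both other definitions of the cell set, no Mki67 or Top2a read after thinning and fewer than 3 of 30 mitosis genes read after thinning, where the lowest value was 0.30. The second HI value rests on 8 cells.

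Mycn (ENSMUSG00000037169; chromosome 12, 12936093 to 12941914) was read in HSCs at levels near those of Myc. The sums were 174 and 281 CPM in young, 373 and 344 in LO, 219 and 345 in MID, and 353 and 251 in HI. Young was the lowest group in the first table, and HI in the second. Per kilobase of all annotated exons, Myc stood at 146 CPM and Mycn at 88.8, the first and the fourth of the 34 members by this measure. That length joins the exons of every annotated transcript, with 2717 bases for Myc and 10188 for Ncl. Ranks between genes therefore depend on the annotation. The old mean was above young by 0.51 (0.86 and 0.16). Single cells ranged from 0 to between 1210 and 1767 CPM in the 4 groups, with medians of 219 in LO, 160.4 in HI, 159 in MID and 135.07 in young cells. In cells without Mki67 and Top2a reads, HI was above young by 0.87 (1.14 and 0.60), a call met by 8.25% of genes and kept in 10 of 11 alternatives. HI minus LO for Mycn was -0.27 (-0.08 and -0.45) in all cells, among the 5 lowest members, and 0.07 (0.08 and 0.06) in cells without such reads.

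**Figure D1:**
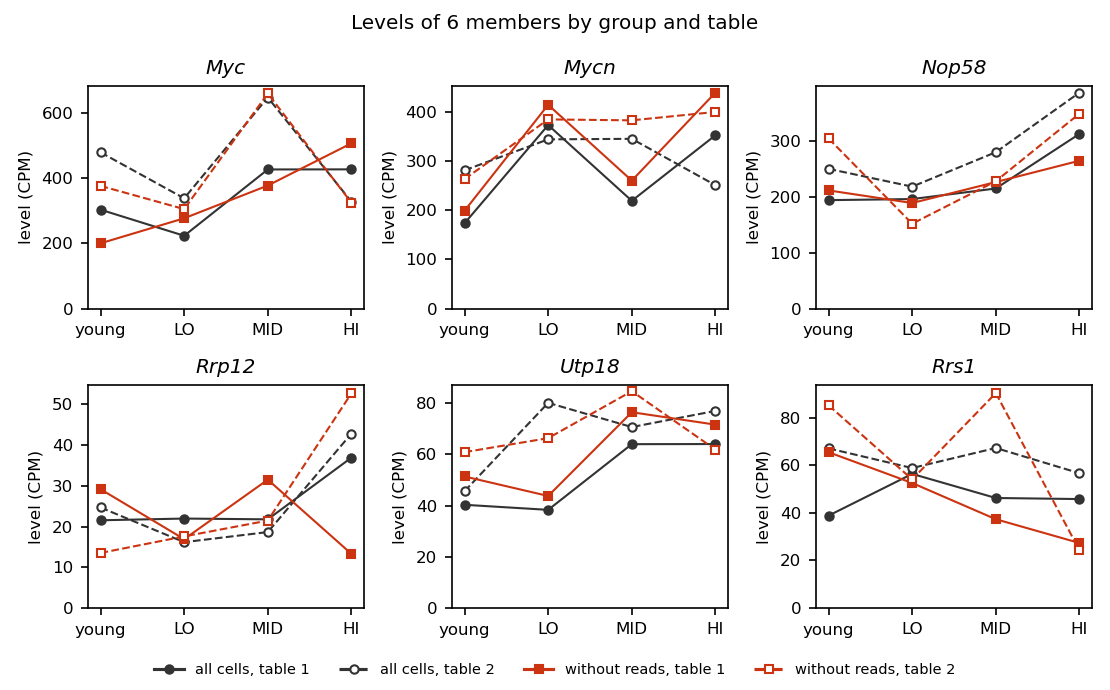
Level in CPM (y axes from 0) of 6 members in young, LO, MID and HI cells (x axis), as 1 sum per group and table. Black circles stand for all kept cells and red squares for cells without Mki67 and Top2a reads, solid lines for the first table and dashed lines for the second. Myc peaks in MID in the second table, and Nop58 and Rrp12 are highest in HI in both tables when all cells are used.

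Most members differed by small amounts between HI and LO cells. The median log2 difference of the 34 members was 0.19 (0.18 and 0.13), beside 0.01 over all genes tested. Of the members, 19 (55.9%) were higher in HI in both tables, a direction shared by 32.5% of all genes, and 5 were lower, against 29.7%. At least 1.5-fold in each table were 2 members, Nop58 and Rrp12, against 4.7% of genes, and none was lower by that size, against 3.43%. The levels of the 34 genes summed to 4843 and 5202 CPM in HI and to 4042 and 4652 CPM in LO. They summed to 4192 and 5415 CPM in MID, the highest group of the second table, and to 4119 and 4291 CPM in young. With reads scaled by spike-ins in place of gene reads, the medians were 0.70 for the members and 0.51 for all genes.

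Among the nucleolar proteins, Ncl (nucleolin) and Npm1 (nucleophosmin) were read in nearly every cell. Ncl was at 660 and 760 CPM in LO and 728 and 844 in HI, a difference of 0.15 (0.14 and 0.15). Npm1 was at 176 and 174 CPM in LO and 218 and 228 in HI, a difference of 0.35 (0.31 and 0.39). Neither reached the size of a call, though both tables had the same sign. Gnl3 (nucleostemin, a nucleolar GTP-binding protein) was at 155 and 152 CPM in LO and 219 and 251 in HI, the third largest difference among the members at 0.61 (0.50 and 0.72). Its median cell was at 188 CPM in HI, 108.8 in MID, 95.09 in LO and 60.6 in young, within ranges that all began at 0. Ddx21, an RNA helicase, did not share this, at -0.05 (-0.08 and -0.02).

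Polr1a and Polr1b encode the catalytic and the second largest subunit of RNA polymerase I. Polr1a was at 43.3 and 52.02 CPM in LO, 63.04 and 94.2 in MID and 64.1 and 52.5 in HI. The difference of HI and LO was 0.28 (0.55 and 0.01), and that of Polr1b was -0.09 (-0.29 and 0.10), with 79.5 and 61.5 CPM in LO and 64.998 and 66.1 in HI. The tables did not share a direction for Polr1b.

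Box C/D snoRNPs serve 2′-O-methylation of ribosomal RNA. All 4 genes listed with them were higher in HI in both tables, where 32.5% of all genes were. Their median was 0.29 (0.18 and 0.40). Nop58 (ENSMUSG00000026020; chromosome 1, 59684971 to 59719044), a core protein of these particles, was at 194 and 250 CPM in young, 196 and 218 in LO, 215 and 279 in MID, and 312 and 386 in HI. HI was the highest group in both tables, and the log2 difference to LO was 0.75 (0.67 and 0.82). Single HI cells ranged from 0 to 2111 CPM with a median of 249, and LO cells from 0 to 1477 with a median of 155. Taken as a mean over cells or after thinning, Nop58 no longer reached 1.5-fold in each table, and over all 9 alternatives its difference was 0.65 to 0.75. Nop56, the partner of Nop58, was higher by 0.35 (0.20 and 0.50), Nolc1, a nucleolar chaperone of snoRNPs, by 0.23 (0.16 and 0.30), and the methyltransferase Fbl (fibrillarin) by 0.03 (0.05 and 0.01). Fbl was the lowest member in CPM and per kilobase of exon, with 8.52 to 13.3 CPM over the 8 sums and 396 to 540 reads per group.

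The 4 box H/ACA snoRNP genes, which serve pseudouridylation, had a median of 0.32 (0.56 and 0.19). Higher in HI in both tables were 3 of them, against 32.5% of all genes. Nhp2 was higher by 0.40 (0.61 and 0.18), Nop10 by 0.39 (0.51 and 0.27) and the pseudouridine synthase Dkc1 (dyskerin) by 0.18 (0.15 and 0.20). Gar1 was higher in the first table and lower in the second (0.63 and -0.14).

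Of 9 genes of the small subunit processome and its maturation, 5 were higher in HI in both tables, against 32.5% of all genes. Lower in both was 1, against 29.7%, and the median of the 9 was 0.31 (0.21 and 0.23). Rrp12 (ENSMUSG00000035049; chromosome 19, 41862851 to 41896173), which acts in late subunit maturation and export, had the largest difference of all members. It was at 21.5 and 24.7 CPM in young, 21.96 and 16.2 in LO, 21.8 and 18.6 in MID, and 36.9 and 42.8 in HI, so HI was the highest group in both tables. The difference to LO was 1.04 (0.72 and 1.35) and that to MID 0.95 (0.74 and 1.16), a call that 4% of genes met. The median cell had no Rrp12 read in any group, and the highest cell was at 697 CPM in HI and 321 in LO. The call was lost with a pseudocount of 10 CPM and without cells with granulocyte and monocyte markers, where the difference was lowest at 0.70. Utp4 and Utp18 are subunits of early processome complexes. HI was above young by 0.72 in Utp4 (0.81 and 0.64) and by 0.70 in Utp18 (0.66 and 0.74), beside 4.63% of genes with such a call. The call held in 7 of 9 alternatives for Utp4 and in 6 for Utp18, whose lowest value was 0.44.

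The 5 members with an E-box had differing values between LO and HI. Utp4 differed by 0.39 (0.56 and 0.23), Utp18 by 0.33 (0.73 and -0.06), Pes1 by 0.10 (0.15 and 0.05), Tsr1 by -0.31 in the first and 0.31 in the second table, and Wdr43 by -0.13 (-0.02 and -0.24). Only Utp4 and Pes1 were higher in HI in both tables, a direction shared by 32.5% of all genes.

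The 9 genes of large subunit assembly had a median of 0.02 (0.14 and -0.05). Of them, 3 were higher in HI in both tables, against 32.5% of all genes, and 2 lower, against 29.7%. Bop1, which forms the PeBoW complex with Pes1 and Wdr12, was at 74.4 and 116.3 CPM in LO and 121.4 and 153 in HI, a difference of 0.55 (0.70 and 0.39). Mrto4, an assembly factor of the large subunit stalk, was the lowest of the 34 at -0.57 (-0.50 and -0.65), with 29.5 and 30.1 CPM in LO and 20.6 and 18.8 in HI. A Mrto4 read was nonetheless found in 40.7% of thinned LO cells (31.9% to 49.9%) and in 50.4% of HI cells (41.2% to 59.5%). The assembly factors Ppan and Rrs1 were at -0.17 (-0.58 and 0.24) and -0.17 (-0.29 and -0.05). Stretches of at least 200 bases with at least 90% identity to another annotated gene were found in 14 members, whose counts can include or lose reads of these copies. Npm1 has 8 pseudogene copies, Nop56 6, Rrs1 and Wdr12 3, Mrto4, Fbl, Dkc1 and Pes1 2, and Ncl, Ddx21, Gar1, Nhp2 and Tsr1 1. Nop58 shares such a stretch with 39 other genes and Wdr12 with 49 in all.

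**Figure D2:**
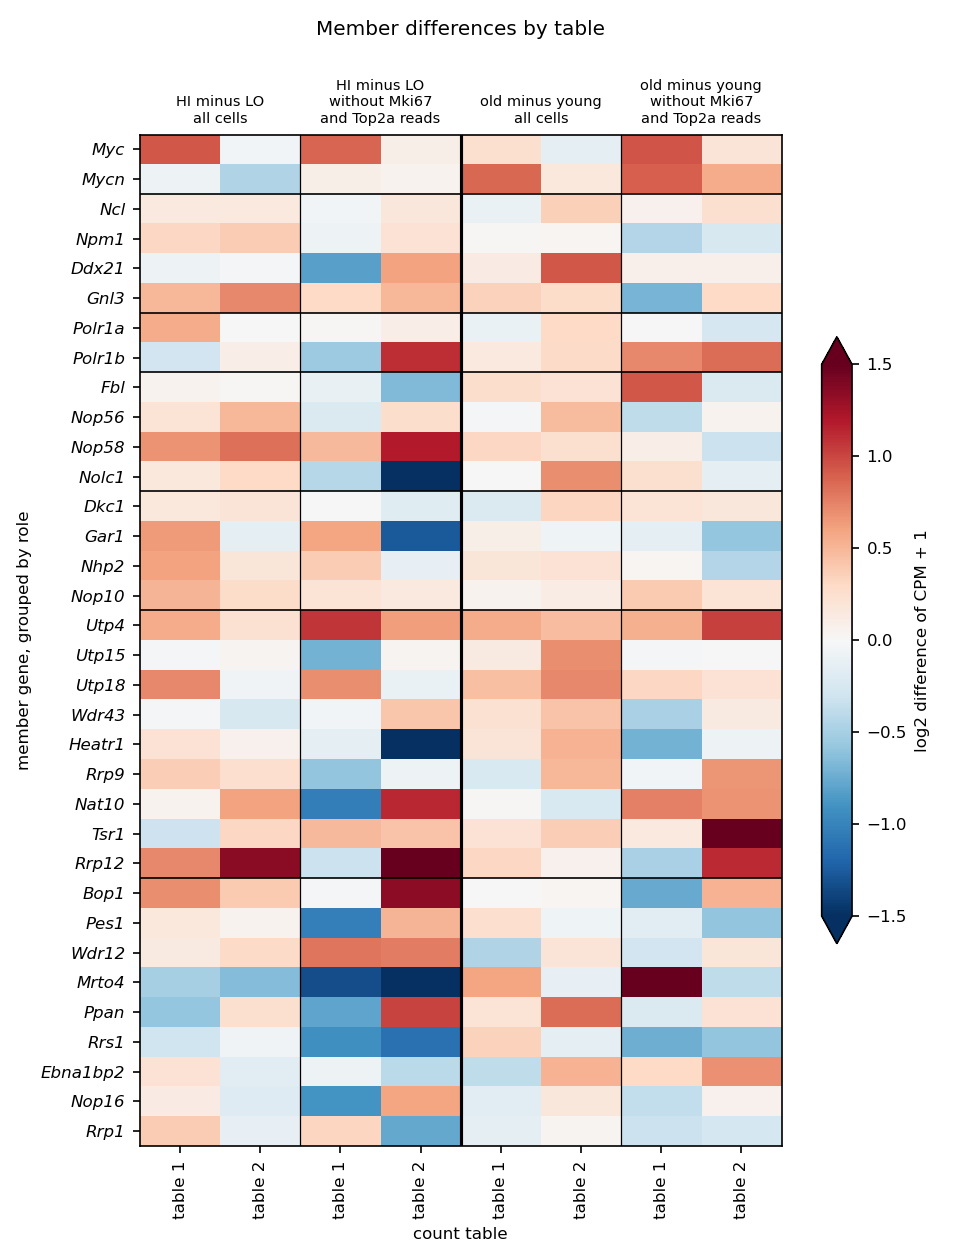
Log2 difference of CPM plus 1 (colour, red higher and blue lower, saturated at 1.5) for each of the 34 members (y axis, grouped by role) in the first and second table (x axis), for HI minus LO and old minus young. Each comparison is shown for all kept cells and for cells without Mki67 and Top2a reads. For HI minus LO, 19 members are red in both tables in all cells and 9 in the smaller set, where Mrto4 and Rrs1 are blue in both.

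In cells without Mki67 and Top2a reads the count of members higher in HI was close to that of other genes. The median of the members for HI minus LO was 0.06 (-0.06 and 0.16), beside -0.03 over all genes. Higher in HI in both tables were 9 members (26.5%), against 25.4% of genes, and lower were 7, against 26.4%. Calls were met by Utp4 at 0.85 (1.07 and 0.63) and Wdr12 at 0.79 (0.81 and 0.77) as higher, against 5.15% of genes, and by Mrto4 at -1.41 (-1.32 and -1.49) and Rrs1 at -1.02 (-0.92 and -1.12) as lower, against 7.63%. Whether the members differ in this respect from those in all cells was not tested, and HI gave 21 and 8 cells to this set against 35 and 33 for LO.

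The named extremes rested on few cells. Of the calls, those of Mrto4, Rrs1 and Wdr12 were lost under both other definitions of the cell set, and Utp4 alone was still called. Rrs1 had no read in 7 of the 8 HI cells of the second table, and its level there was 24.2 CPM against 54.02 in LO. Mrto4 was at 10.2 and 11.8 CPM in HI and 26.99 and 35.02 in LO, and its call held in 9 of 11 alternatives (-1.80 to -0.55). The call of Rrs1 held in 8 of 11, with -0.20 as the value nearest 0, and that of Wdr12 in 7, at 0.27 to 1.37. Utp4 was at 68.9 and 144.1 CPM in HI and 32.2 and 92.7 in LO, and kept its call in 6 of 11 alternatives. Nolc1 at -1.18 (-0.43 and -1.92) and Heatr1, a processome scaffold, at -1.02 (-0.13 and -1.90) were low mainly in the second table. Rrp12 was at 0.60 (-0.33 and 1.53) and Bop1 at 0.65 (-0.04 and 1.34), so the tables no longer shared a direction for either. Nop58 was higher in HI in both tables, at 0.84 (0.48 and 1.19), and Fbl lower, at -0.39 (-0.12 and -0.66). Polr1a at 0.06 (0.02 and 0.10) was slightly higher in both tables, while Ncl at 0.06 (-0.04 and 0.17), Npm1 at 0.07 (-0.08 and 0.22) and Polr1b at 0.28 (-0.54 and 1.11) had no shared direction. Myc was at 0.48 (0.87 and 0.09).

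Within the HI group the members could be compared between 100 cells with and 29 cells without such reads. Their median was 0.26 higher in cells with Mki67 or Top2a reads (0.35 and 0.13), beside 0.08 over all genes, with 16 members higher in both tables, against 30.4% of genes, and 4 lower, against 24.8%. Nop56 at 0.74, Heatr1 at 1.45, Mrto4 at 0.94 and Rrs1 at 1.11 were called higher, where 9.75% of genes were, and Wdr12 at -0.72 lower, where 5.16% were. The 29 cells without such reads, 21 and 8 by table, are also the HI cells compared with LO above. The calls of Mrto4, Rrs1 and Wdr12 in these 2 comparisons therefore share cells, and one is no support for the other. With thinned reads the median was again 0.26, and Nop56 and Heatr1 were called, where 10.2% of genes were. Mycn was lower in HI cells with such reads in both tables, by -0.46 and -0.81, and Myc had no shared direction (-0.35 and 0.01).

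In young cells, 94 with and 40 without such reads, the median of the members had the opposite sign. It was -0.13 (-0.19 and -0.10), beside 0.05 over all genes, with 10 higher in both tables, against 29% of genes, and 15 lower, against 23.9%. Myc was higher in young cells with such reads, at 0.79 and 0.46. Dkc1 was higher in them at 0.81 and 0.37, and Gnl3 lower at -1.40 and -0.10.

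**Figure D3:**
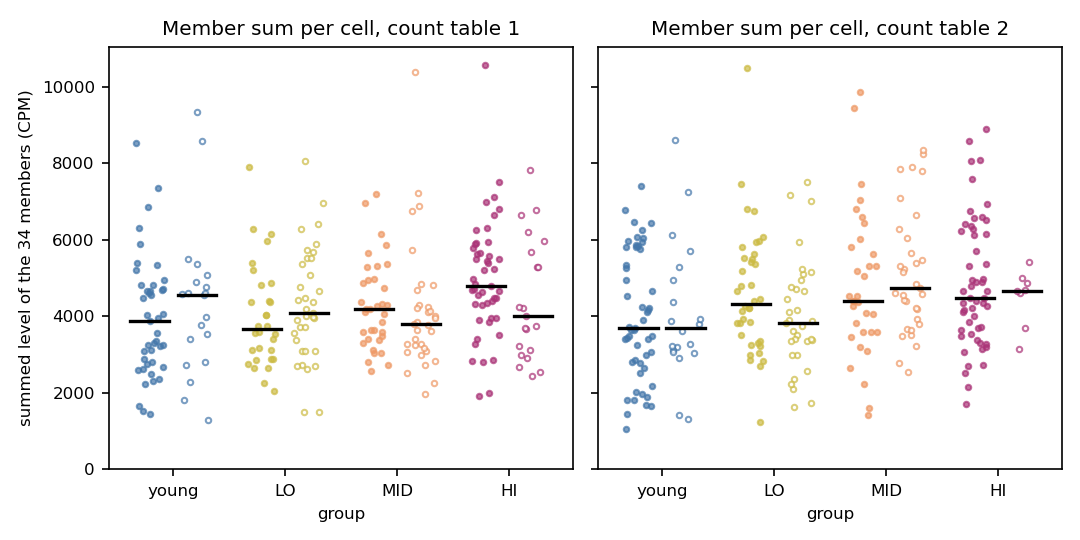
Summed CPM of the 34 members in each cell (y axis from 0) by group (x axis), for the first table (left) and the second (right). In each group, filled points are cells with and open points cells without Mki67 and Top2a reads, and black bars are medians. The groups overlap over most of their range, and the open HI points of the second table are only 8 cells.

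Seen cell by cell, the summed level of the members had a median of 4645 CPM in HI, 4242 in MID, 4011 in LO and 3833 in young, within ranges of 1705 to 10570, 1415 to 10392, 1222 to 10495 and 1042 to 9348. Of LO cells, 30.8% lay above the HI median in the first table and 39.4% in the second. In cells without Mki67 and Top2a reads the medians in the same order were 4247, 4215, 3963 and 3893 CPM, and in the first table LO stood at 4070 and HI at 3994. The groups thus overlapped over most of their range in both sets of cells.

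More members were read per HI cell. With every cell thinned to 100000 reads, the median cell had reads of 25 members in HI, 23 in LO, 22 in MID and 21 in young. The share of cells with a read was higher in HI than in LO in both tables for 24 of 34 members (70.6%), against 53.4% of genes, and the median gain was 10.2 percentage points for the members and 4.91 for all genes. Without Mki67 and Top2a reads the count was 10 members (29.4%), against 30% of genes. The share was 71.5% in LO and 91.9% in HI for Gnl3, 47.2% and 65.04% for Utp4, and 83.7% and 95.1% for Nop56. Depth was equal here, but HI cells also had reads of more genes, and the part of that in the members' shares was not tested.

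Members went together weakly across cells. Over the 57 to 69 thinned cells of each group and table, the median Spearman correlation of a member with the sum of the others was 0.14 to 0.28. The next values use CPM before thinning in the same cells. The sum of the members and that of other ribosome biogenesis genes had correlations of 0.41 to 0.76, and the sum with ribosomal proteins -0.07 to 0.37. Between the member sum and the number of nuclear gene reads of a cell they were -0.21 to 0.40. The labels do not name the animals or plates that cells of a group share, so these values are descriptions only.

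Differences between old and young cells were small for most members. The median for old minus young, with old as the mean of LO, MID and HI, was 0.19 (0.14 and 0.25), beside 0.01 over all genes. Higher in old in both tables were 17 members (50%), against 30.8% of genes, and lower were 0, against 27.8%. No member reached 1.5-fold in each table, where 3.87% of genes were higher and 2.36% lower by that size. The comparisons of old with young and of HI with LO share the LO and HI cells, so one is no support for the other.

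The largest differences of old to young were in genes of several roles. In the second table, age and sex cannot be told apart in these differences. Utp18 was at 40.3 and 45.6 CPM in young, 38.3 and 80.2 in LO, 64.03 and 70.7 in MID and 64.1 and 77.04 in HI, a difference of old to young of 0.59 (0.45 and 0.72). The lowest level in the second table was that of young, and in the first young and LO were alike. Ddx21 was higher by 0.53 (0.12 and 0.93), Ppan by 0.52 (0.21 and 0.84) and Utp4 by 0.51 (0.55 and 0.46). At the other end were Wdr12 at -0.13 (-0.45 and 0.19), Nat10, an RNA cytidine acetyltransferase, at -0.10 (0.02 and -0.23), Rrp1 at -0.05 (-0.14 and 0.05), Nop16, with -0.17 in the first and 0.17 in the second table, and Gar1 at 0.01 (0.09 and -0.07). Myc was at 0.06 (0.24 and -0.13), Ncl at 0.13 (-0.10 and 0.36), Npm1 at 0.03 (0.02 and 0.03), Fbl at 0.24 (0.27 and 0.21), Polr1a at 0.10 (-0.10 and 0.30) and Polr1b at 0.22 (0.14 and 0.29).

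Against young, the members had a median of 0.07 (-0.02 and 0.16) in LO, 0.16 (0.05 and 0.33) in MID and 0.24 (0.23 and 0.36) in HI. Higher in both tables were 12, 16 and 21 members, where 27.2%, 28% and 32.7% of genes were. Called higher were none in LO, where 4.77% of genes were, Utp18 in MID, where 3.85% of genes were, and Nop58, Utp4, Utp18 and Rrp12 in HI, where 4.63% were. The call of Utp18 in MID was kept in 5 of 9 alternatives. The summed level of 10 granulocyte and monocyte markers was 613 and 642 CPM in young and 813 to 933 in the old sums. Prtn3 and Lyz2 carried it and were read in over 90% of cells, while 6 of the 10, Elane, Mpo, Ctsg, Ly6c2, Csf1r and Adgre1, had means under 1 CPM. Without the cells in which 3 or more of these markers were read, the old minus young median of the members was 0.11.

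In cells without Mki67 and Top2a reads the median old minus young difference of the members was 0.03 (0.01 and 0.15), below the 0.06 of all genes. Age and sex cannot be told apart in the second of these values. Higher in both tables were 12 members, against 29.5% of genes, and lower were 8, against 24.7%. Polr1b at 0.78 (0.72 and 0.84) and Nat10 at 0.71 (0.75 and 0.67) were called higher, where 7.65% of genes were, and Rrs1 at -0.66 (-0.73 and -0.59) lower, where 4.36% were. Polr1b kept its call in 7 of 11 alternatives, Nat10 in 6 and Rrs1 in 3. All 3 calls were lost under both other definitions of the cell set, where the values nearest 0 were 0.16 for Polr1b, 0.09 for Nat10 and -0.04 for Rrs1.

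Other members with large values differed in size between the tables. Tsr1, a GTPase-like factor of small subunit maturation, was at 1.05 (0.14 and 1.95), with 11.7 CPM in the 20 young cells of the second table. Mrto4 was at 0.87 (2.13 and -0.39), with 3.74 CPM in the 20 young cells of the first table, so its direction was not shared. Utp4 at 0.78 (0.54 and 1.03) and Mycn at 0.73 (0.90 and 0.56) were higher in both tables. Lower in both were Heatr1 at -0.39 (-0.71 and -0.07), Pes1 at -0.38 (-0.17 and -0.59), Gar1 at -0.36 (-0.13 and -0.58) and Npm1 at -0.34 (-0.43 and -0.24). Myc was at 0.57 (0.95 and 0.19), Ncl at 0.16 (0.07 and 0.24), Fbl at 0.36 (0.94 and -0.21) and Polr1a at -0.13 (-0.00 and -0.25).

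The remaining genes of the pathway give the setting. For HI minus LO in all cells, the other ribosome biogenesis genes past the filter had a median of 0.10 (0.14 and 0.20), with 55 (44.4%) higher in both tables and 19 lower, where 32.5% and 29.7% of all genes were. The assembly factor Gtpbp10 was the lowest of them at -1.47 (-1.07 and -1.87), and Spata5l1 the highest at 0.89 (0.97 and 0.82). Of 46 other known MYC targets, 36 were higher in both tables and 4 lower, against the same shares of all genes, with a median of 0.39 (0.38 and 0.35). They were led by Mthfd2, a mitochondrial folate enzyme, at 1.86 (1.56 and 2.15) and Slc7a5, an amino acid transporter, at 0.85 (0.64 and 1.05). The 67 cytosolic ribosomal protein genes past the filter had a median of 0.00 (0.05 and -0.03).

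Partners of MAX and regulators of MYC form smaller lists. The 9 genes of the MAX network had a median of -0.11 (0.09 and -0.32), with no shared sign. In it Max was at -0.45 (-0.11 and -0.78) and Mxd3, a repressor partner of MAX, at 2.15 (1.57 and 2.73). The 20 MYC regulators had a median of -0.05 (-0.07 and -0.06), with the kinase Pim1 at -0.87 (-0.72 and -1.02) and the ubiquitin ligase subunit Skp2 at 0.81 (0.87 and 0.75). RNA polymerase III genes were at 0.09 and other RNA polymerase I genes at 0.04. For comparison, 26 S phase genes were at 1.40 (1.52 and 1.31) and 30 G2 and M phase genes at 2.08 (1.23 and 2.90).

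In cells without Mki67 and Top2a reads the HI minus LO medians were 0.10 for other ribosome biogenesis genes, 0.14 (0.08 and 0.31) for other MYC targets, 0.11 (0.05 and 0.17) for ribosomal proteins, 0.33 (0.20 and 0.74) for S phase genes and -0.19 for G2 and M phase genes. Of the 26 S phase genes, 7 were called higher, where 5.15% of all genes were. The part of S phase reads in the members' values was not tested.

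**Figure D4:**
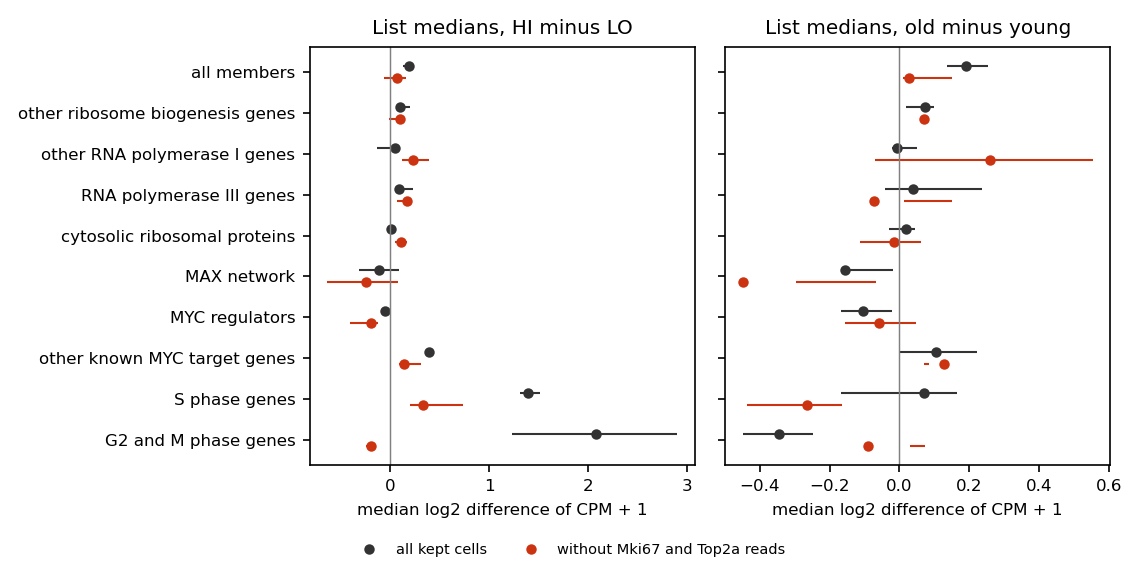
Median log2 difference of CPM plus 1 (x axis) over the genes of each list (y axis), for HI minus LO (left) and old minus young (right), on scales of their own. Points are medians of the mean of both tables, black for all kept cells and red for cells without Mki67 and Top2a reads, and lines join the medians of the tables, which need not enclose the point. The members lie at 0.19 in both panels for all cells, far below the values of 1.40 for S phase and 2.08 for mitosis genes in HI minus LO.

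In MID against LO the members had a median of 0.07 (0.08 and 0.15), with 11 higher in both tables, against 27% of genes, and 1 lower, against 25.2%. Polr1a was higher in both tables at 0.53 and 0.84, close to a call. Ribosomal proteins were higher in both tables for 47 of 67 genes at a median of 0.12. HI against MID gave 0.11 (0.18 and 0.00), with 16 members higher in both tables, against 30.2% of genes, and 7 lower, against 28%, with Rrp12 the only call.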

How the data were processed

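Each sample is 1 cell whose library was made by a modified form of Smart-seq2, per the labels' protocols. The deposited values are whole read counts of each gene, without molecular identifiers, in 2 tables of 283 and 280 cells, and every cell's column was matched to its label. The submitters' processing notes name STAR 2.7.3a, Subread, featureCounts 2.0.0, DESeq2 and mm10, with no role or order. Symbols came from GENCODE M21 (GRCm38). The aligner's settings, strand and the handling of overlapping genes are not given in the sources used here. Exons of Gnl3, Nop56, Dkc1, Nhp2, Heatr1, Rrp9, Tsr1, Bop1, Pes1 and Wdr12 overlap another coding gene, and 8 members host snoRNA genes.

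Cells were kept with at least 50000 nuclear gene reads, 1000 genes and at most 20% mitochondrial reads. No doublet caller was run, since the protocol sorted 1 cell per well. Reads were summed per group and table (8 sums) and scaled to CPM of nuclear gene reads with TMM factors (edgeR 4.0.16, R 4.3.3). Within each table, log2 values of CPM plus 1 were subtracted, and the results of both tables averaged, which understates changes of low genes. A call is at least 0.58 (1.5-fold) with 1 sign in each table. Group "without Mki67 and Top2a reads" means 0 deposited counts of both. Shares of cells used reads thinned to 100000 per cell (501 cells), with exact Clopper-Pearson intervals that cover counting error only. Reads of 1 molecule and cells of 1 animal are not independent. CPM per kilobase used the union of annotated exons. The difference and call steps were tested on simulated data. Python 3.11.15, NumPy 2.4.6, pandas 2.3.3, SciPy 1.17.1, matplotlib 3.10.9 and BLAST 2.17.0 were used.

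Members and lists were chosen with earlier results of these data known. Named in each of the 4 comparisons (HI minus LO and old minus young, each in all cells and without Mki67 and Top2a reads) are the 5 highest and 5 lowest members, and always Myc, Mycn, Ncl, Npm1, Fbl, Polr1a and Polr1b. Of each context list, up to 2 highest and 2 lowest genes could be named. Other members are named with values to show their role or an E-box. The 9 alternatives counted for a single call were median-ratio size factors, no composition factors, pseudocounts of 0.1 and 10 CPM, a mean over cells, thinned reads, cells of at least 100000 reads, leaving out each gene's cell with most reads, and leaving out cells with granulocyte and monocyte markers. For the set without Mki67 and Top2a reads, 2 other definitions of it, chosen after seeing the data, made 11. Spike-in scaling and level filters were further alternatives.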

Additional observations from a re-analysis of the deposited data

Results flagged for a closer look

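The difference between cells with and without Mki67 and Top2a reads could have one sign in both tables of HI and the opposite in both of young. Flagged were the 3 members with such signs that were also called in HI or in young cells. Members with such signs but no call, such as Npm1, are not listed. The share of all genes meeting this rule was not counted. Whether the groups differ in this was not tested. The contrast of the 2 differences, HI minus young, was 0.86 on the log2 scale for Nop56, a core protein of box C/D snoRNPs, with 0.74 in HI (0.63 and 0.85) and -0.12 in young (-0.22 and -0.02). It was 1.998 for Heatr1, the processome scaffold, with 1.45 in HI (0.65 and 2.25) and -0.55 in young (-0.85 and -0.25). It was 1.95 for Rrs1, a large subunit assembly factor, with 1.11 in HI (0.92 and 1.29) and -0.85 in young (-1.20 and -0.50). With thinned reads, Nop56 had no shared sign in young cells (-0.43 and 0.23), while Heatr1 (-1.99 and -0.06) and Rrs1 (-0.71 and -0.61) did. The HI values rest on 21 and 8 cells without such reads, and the young values on 20 and 20.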

How the results depend on the processing

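The medians of the 4 comparisons and their counts of members higher in both tables were recomputed under 16 or fewer settings each. Of these values, 9 moved beyond the set limits, which were the larger of 0.1 and the SD of the tables for a median, and 1.5 times for a count. Scaling by spike-in reads raised the HI minus LO median to 0.70 with 32 members higher in both tables (all genes 0.51 and 73.5%), and to 0.23 with 15 members without Mki67 and Top2a reads (all genes 0.14 and 35.4%). It raised the old minus young median to 0.46 with 30 members (all genes 0.28 and 59.7%), and to 0.13 without such reads (all genes 0.15). The old minus young median without such reads, 0.03 in the report, was -0.090 without cells with granulocyte and monocyte markers, chosen after seeing the data, and 0.15 with the second table alone. Medians for HI minus LO in all cells ranged from 0.13 to 0.70 and without such reads from -0.06 to 0.23. With spike-in scaling 13 members were called higher in HI than in LO, against 2, and 24.5% of all genes, against 4.7%. Among single members, 87 values moved beyond these limits and 867 did not, and 0 called ones changed sign. Values of a member from a single table could not pass these limits, nor change the sign of a call. The limits are also widest for members whose tables differ most, so the 867 are no measure of stability. For other settings the cause was not tested. Leaving out cells with 2 or more markers of a mature lineage, or with any of 30 G2 and M phase genes, was not run, since 0 to 4 cells per group and table were left. No paired analysis was possible because the cell numbers in the labels only name the cells of a group and no result comes from a test.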
